A study of Mus musculus with 8 samples.

Results

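The interleukin-1 (IL-1) family was examined in laser-captured mouse endometrium, in which 10 genes were followed: the agonists *Il1a*, *Il1b*, *Il1f9* (also named *Il36g*, encoding IL-36γ) and *Il18*, the antagonist *Il1rn*, the signaling receptors *Il1r1* and *Il1rl2*, the decoy receptor *Il1r2*, and the processing genes *Casp1* and *Nlrp3*. They were taken by gene symbol from the 52325 genes of the deposited count table, and all 10 were among the 18174 genes with enough counts to be tested. Endometrium came from 4 wild-type (WT) mice and 4 *Thra1*PV/+ mice, with 1 RNA-seq library from each sample. The labels name the tissue as uterus, and the laser capture of endometrium is stated in the study's methods. *Thra1*PV/+ mice carry, in every cell, 1 *Thra* allele with the PV mutation, a dominant negative form of thyroid hormone receptor α1, so the comparison does not tell an effect within the uterus from an effect of other organs. All mice were females brought to metestrus. The ages of the sequenced mice and their strain are not given in the sources used here. The comparison asked whether the ligands, antagonist, receptors and processing genes of this family differ between the genotypes, and whether their levels move with markers of squamous epithelium or of neutrophils.

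IL-1α and IL-1β bind the receptor encoded by *Il1r1*, which recruits the accessory chain IL-1RAP and signals through MyD88 to NF-κB. IL-1α is stored in epithelial cells, keratinocytes among them, and acts when they are damaged, whereas IL-1β and IL-18 are made as precursors, mainly by myeloid cells and by epithelium respectively, and are cleaved by caspase-1 once an inflammasome such as the one built on NLRP3 has formed. The antagonist IL-1RN occupies the signaling receptor without activating it, and IL-1R2 binds the agonists but has no signaling domain, so both dampen the pathway. IL-36γ is an agonist typical of stressed keratinocytes and acts through the receptor encoded by *Il1rl2*. Neutrophils are a known source of IL-1β, IL-1RN and IL-1R2. These are statements of background and were not measured here.

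The libraries held between 48791602 and 59818887 counts. Counts of *Thra*, with a log2 fold change of 0.04, do not separate the PV transcript from the normal one, so they are no check of the genotype labels. CPM are counts scaled to a common library total after TMM normalization. Genes were compared with edgeR's quasi-likelihood test, and those that changed by at least 2-fold with an adjusted p-value (Benjamini-Hochberg, all tested genes) of at most 0.1 are named as called. By this rule 180 genes, 0.990% of those tested, were called, of which 168 (0.924%) were higher in *Thra1*PV/+ endometrium. The libraries also differed in cell types. Of the smooth muscle markers, 6 of 6 had lower values in *Thra1*PV/+ endometrium, all at an unadjusted p-value under 0.05, with a median log2 fold change of -4.31 and 0 called. WT library 1 stood apart, with a summed level of 12640 CPM where the other WT libraries had 529 to 1094 CPM. The simple epithelium markers were present in all libraries (2630 to 7224 CPM summed), with a median log2 fold change of 0.03. Of the endometrial stroma markers 0 of 10 had a positive log2 fold change, with 2 at an unadjusted p-value under 0.05, both lower, 0 called and a median of -1.31. Of the blood cell markers 5 of 6 were tested, 0 had a positive log2 fold change, 2 had an unadjusted p-value under 0.05, both lower, and 0 were called, with a median of -1.78. Their summed level was 14.7 to 29.3 CPM in *Thra1*PV/+ libraries and 179, 57.5, 17.1 and 19.6 CPM in WT libraries 1 to 4. In bulk tissue, fewer cells of a type and less RNA per cell cannot be told apart.

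By edgeR 0 of the 10 genes were called, whereas 4 had an unadjusted p-value under 0.05, all 4 higher in *Thra1*PV/+ endometrium: the agonist *Il1f9*, the antagonist *Il1rn*, the decoy receptor *Il1r2* and the inflammasome sensor *Nlrp3*. Among all tested genes, 9.77% had an unadjusted p-value under 0.05, with 5.05% higher and 4.72% lower. DESeq2, which called 3.64% of the genes it gave an adjusted p-value, called 2 of the 10, *Il1f9* (adjusted p = 0.0218) and *Il1r2* (adjusted p = 0.0984). All 10 log2 fold changes were above 0, with a median of 1.48, where 43.2% of all tested genes were above 0 and their median was -0.05. The number at an unadjusted p-value under 0.05 depended on single libraries. It was 0 without *Thra1*PV/+ library 2, 2 without *Thra1*PV/+ library 3, 1 without WT library 1, 1 without WT library 3 and 6 without WT library 4. *Thra1*PV/+ library 2 was the highest of its genotype for 8 of the 10 genes, WT library 4 the highest WT library for 7, and WT library 2 the lowest for 6.

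**Figure D1:**
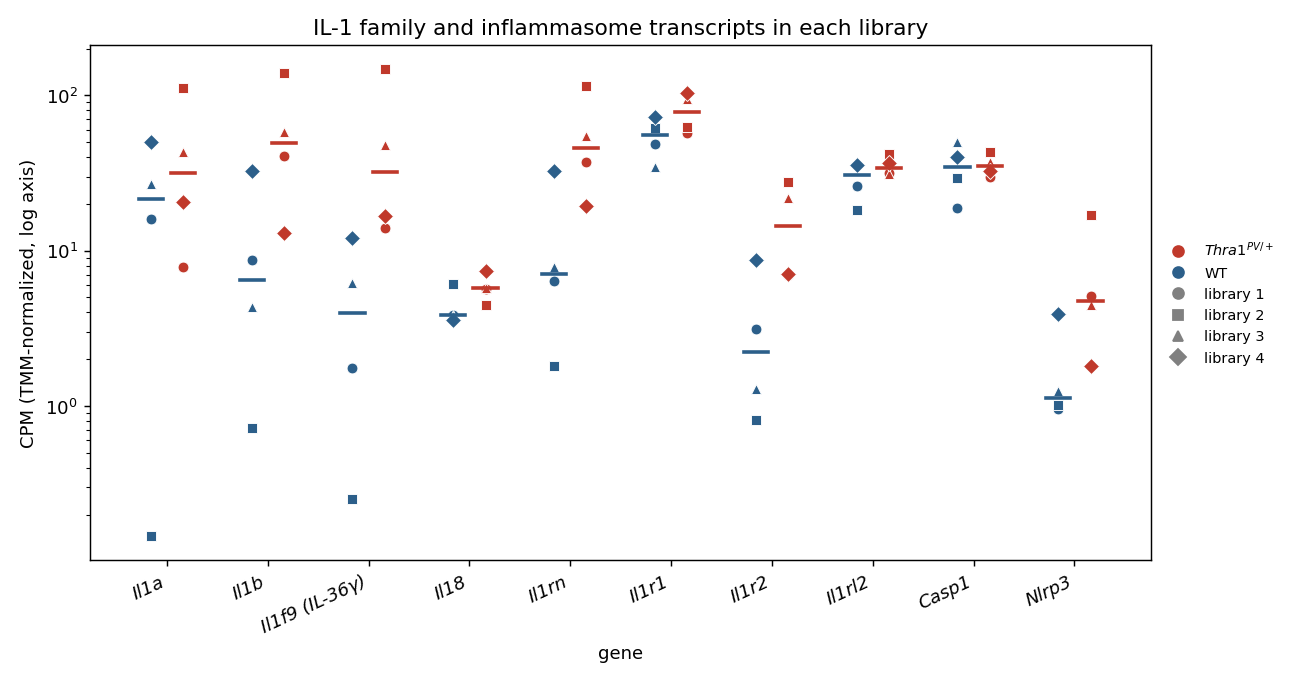
Levels of the 10 genes in each library, in TMM-normalized CPM on a log axis, with WT in blue and *Thra1*PV/+ in red. Each point is 1 library, its shape gives the library number and the horizontal line is the median of the genotype. *Il1f9* is the only gene whose genotypes do not overlap (14.0 to 148 CPM against 0.253 to 12 CPM), and *Casp1* and *Il1rl2* lie close together in all libraries.

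Promoter sequences were available for all 10 genes, in 14 windows of 300 bases that run from 250 bases before the RefSeq transcript start to 50 bases from it on (GRCm38.p6). They were searched on both strands for 6 motifs: NF-κB, AP-1 (TGANTCA), C/EBP (TTGCNNAA), PU.1 (GAGGAAG), the half-site of the thyroid hormone response element (AGGTCA) and the TATA box (TATAAA). Of 32851 windows of all genes, 8.46% held the NF-κB motif, 7.81% AP-1, 10.8% C/EBP, 13.6% PU.1, 16.3% the half-site and 13.6% TATAAA. The windows of the 4 genes on chromosome 2, which hold the 2 IL-1 agonists, the antagonist and IL-36γ, are shown because these are the ligands among the 10 genes that varied most between libraries. Each runs 5′ to 3′ on the strand of its gene, with motif matches in capitals.

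The windows lie at chr2:129309923-129310222 (*Il1a*, minus strand), chr2:129371090-129371389 (*Il1b*, minus strand), chr2:24336610-24336909 (the most upstream of 3 windows of *Il1rn*, plus strand) and chr2:24186226-24186525 (*Il1f9*, plus strand).
Il1a: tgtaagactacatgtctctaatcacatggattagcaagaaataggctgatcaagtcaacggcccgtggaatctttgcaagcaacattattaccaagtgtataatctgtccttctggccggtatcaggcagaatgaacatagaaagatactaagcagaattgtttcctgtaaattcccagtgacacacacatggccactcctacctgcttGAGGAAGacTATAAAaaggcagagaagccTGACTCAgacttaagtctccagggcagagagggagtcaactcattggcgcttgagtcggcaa
Il1b: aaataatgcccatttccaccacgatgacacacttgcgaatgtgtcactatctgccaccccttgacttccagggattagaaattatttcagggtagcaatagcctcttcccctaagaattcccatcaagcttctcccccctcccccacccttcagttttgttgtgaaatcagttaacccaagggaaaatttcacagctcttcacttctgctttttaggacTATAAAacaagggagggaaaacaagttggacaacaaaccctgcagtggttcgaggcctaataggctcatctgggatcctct
Il1rn: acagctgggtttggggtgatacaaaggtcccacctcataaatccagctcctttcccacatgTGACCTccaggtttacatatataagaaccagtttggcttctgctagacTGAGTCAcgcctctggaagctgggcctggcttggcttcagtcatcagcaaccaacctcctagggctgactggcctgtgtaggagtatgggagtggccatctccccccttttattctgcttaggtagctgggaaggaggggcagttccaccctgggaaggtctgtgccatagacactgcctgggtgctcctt
Il1f9: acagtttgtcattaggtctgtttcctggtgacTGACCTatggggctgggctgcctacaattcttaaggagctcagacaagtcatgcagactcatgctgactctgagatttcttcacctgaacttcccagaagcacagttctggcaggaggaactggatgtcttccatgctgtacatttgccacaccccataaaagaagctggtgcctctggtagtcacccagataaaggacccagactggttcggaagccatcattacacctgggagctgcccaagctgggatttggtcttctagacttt

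The *Il1a* window held a PU.1 motif at -41, TATAAA at -32 and an AP-1 motif at -12, counted from the transcript start to the first base of the match. The *Il1b* window held TATAAA at -31. The *Il1rn* window held the half-site on its other strand at -189 and an AP-1 motif at -141, and the *Il1f9* window held the half-site on its other strand at -218. Of the other windows, those of *Il1r1* held C/EBP at -133 and NF-κB on the other strand at -232, and that of *Il1rl2* held C/EBP at -124. Those of *Nlrp3* held NF-κB at -186, PU.1 on the other strand at -130 and PU.1 at -36. The windows of *Il1r2* and *Casp1* held none of the 6 motifs, and those of *Il18* and *Il1rl2* and a downstream window of *Il1rn* held TATAAA on their other strand at -175, -166 and 15. These are matches of letters within the windows, and no binding was measured.

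*Il1f9* (ENSMUSG00000044103.4, chromosome 2 of GRCm38, 24186476 to 24193568, plus strand) encodes IL-36γ. It had 14.0, 148, 47.6 and 16.8 CPM in *Thra1*PV/+ libraries 1 to 4 and 1.76, 0.253, 6.19 and 12 CPM in WT libraries 1 to 4. The *Thra1*PV/+ libraries all lay above the WT libraries, with a narrow gap between *Thra1*PV/+ library 1 and WT library 4. *Il1f9* was the only 1 of the 10 genes without overlap, and among all tested genes 6.04% did not overlap, 3.55% with *Thra1*PV/+ higher and 2.49% with it lower. The log2 fold change was 3.49 (SE, the standard error, 1.18; edgeR unadjusted p = 0.0178, adjusted p = 0.370), and the exact permutation test on log2 CPM gave p = 0.0286, the smallest that 70 arrangements of 4 against 4 libraries can give. Without *Thra1*PV/+ library 2, which had the highest level, the log2 fold change was 2.37, and without WT library 4 it was 4.37. It had an unadjusted p-value under 0.05 in 7 of 8 leave-one-out fits. Its receptor gene *Il1rl2* (ENSMUSG00000070942.8, chromosome 1, 40324610 to 40367562, plus strand) had 31.7, 41.9, 31.4 and 36.6 CPM in *Thra1*PV/+ libraries 1 to 4 and 26.0, 18.3, 37.3 and 35.6 CPM in WT libraries 1 to 4. The genotypes overlapped, with the highest WT library above 3 of the 4 *Thra1*PV/+ libraries. Its log2 fold change was 0.27 (SE 0.23, adjusted p = 0.770).

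*Il1b* (ENSMUSG00000027398.13, chromosome 2, 129364570 to 129371139, minus strand), the secreted agonist, had 40.8, 138, 58.2 and 13.1 CPM in *Thra1*PV/+ libraries 1 to 4 and 8.72, 0.722, 4.32 and 32.4 CPM in WT libraries 1 to 4. Of the *Thra1*PV/+ libraries 3 lay above all WT libraries, and the lowest of them, library 4, lay below WT library 4. edgeR estimated a log2 fold change of 2.44 (SE 1.08, unadjusted p = 0.0528, adjusted p = 0.522; exact permutation test, p = 0.0571). It was 1.69 without *Thra1*PV/+ library 2 and 3.77 without WT library 4. *Il1b* overlaps the antisense gene *Il1bos* on the other strand, and *Il1a* overlaps *Gm14023*, also on the other strand. The libraries were stranded, but how the counting used strand is not given in the sources used here, so reads of the overlapping parts may be shared. *Il1r1*, *Il1r2*, *Il1rl2* and *Il18* also overlap other annotated genes, whereas *Il1rn*, *Il1f9*, *Casp1* and *Nlrp3* overlap none.

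*Il1a* (ENSMUSG00000027399.1, chromosome 2, 129299610 to 129309972, minus strand), the epithelial agonist, varied more within a genotype than any of the other 9 genes. It had 7.80, 112, 43.0 and 20.7 CPM in *Thra1*PV/+ libraries 1 to 4 and 16, 0.144, 27.0 and 50.3 CPM in WT libraries 1 to 4. The groups overlapped almost fully, and in WT library 2 only 8 counts were found. Between the highest and the lowest WT library the ratio was 348, and between the highest and the lowest *Thra1*PV/+ library it was 14.3. The log2 fold change was 0.97 (SE 1.23, adjusted p = 0.859; exact permutation test, p = 0.486), and leaving out 1 library gave values between 0.03 (*Thra1*PV/+ library 2 left out) and 1.67 (WT library 4 left out). *Il18* (ENSMUSG00000039217.13, chromosome 9, 50554827 to 50581840, plus strand), the agonist that epithelial cells hold as a precursor, was low and even. It had 5.69, 4.44, 5.78 and 7.35 CPM in *Thra1*PV/+ libraries 1 to 4 and 3.84, 6.12, 3.84 and 3.56 CPM in WT libraries 1 to 4. WT library 2 lay above the other WT libraries and above 3 *Thra1*PV/+ libraries. Its log2 fold change was 0.42 (SE 0.28, adjusted p = 0.679), and 0.67 without WT library 2.

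*Il1rn* (ENSMUSG00000026981.15, chromosome 2, 24336853 to 24351494, plus strand), the receptor antagonist, had 37.4, 115, 54.6 and 19.4 CPM in *Thra1*PV/+ libraries 1 to 4 and 6.33, 1.81, 7.90 and 32.6 CPM in WT libraries 1 to 4. As for *Il1b*, 3 of the 4 *Thra1*PV/+ libraries lay above all WT libraries and library 4 lay below WT library 4. edgeR estimated a log2 fold change of 2.22 (SE 0.88, unadjusted p = 0.0341, adjusted p = 0.458; exact permutation test, p = 0.0571). It was 1.61 without *Thra1*PV/+ library 2 and 3.40 without WT library 4. *Il1r2* (ENSMUSG00000026073.13, chromosome 1, 40074079 to 40125231, plus strand), the decoy receptor, had 7.0, 27.7, 21.9 and 7.11 CPM in *Thra1*PV/+ libraries 1 to 4 and 3.15, 0.813, 1.29 and 8.71 CPM in WT libraries 1 to 4. WT library 4 lay above the 2 lower *Thra1*PV/+ libraries, and the other WT libraries lay below all 4. The log2 fold change was 2.19 (SE 0.82, unadjusted p = 0.0270, adjusted p = 0.432; exact permutation test, p = 0.0857), 1.78 without *Thra1*PV/+ library 2 and 3.18 without WT library 4. *Il1r1* (ENSMUSG00000026072.12, chromosome 1, 40225080 to 40317257, plus strand), the signaling receptor, had 56.9, 62.9, 94.2 and 103 CPM in *Thra1*PV/+ libraries 1 to 4 and 48.5, 61.8, 34.5 and 72.5 CPM in WT libraries 1 to 4. The upper 2 *Thra1*PV/+ libraries lay above all WT libraries and the other 2 lay among them. Its log2 fold change was 0.55 (SE 0.28, unadjusted p = 0.0847, adjusted p = 0.587).

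*Nlrp3* (ENSMUSG00000032691.14, chromosome 11, 59541568 to 59566956, plus strand) encodes the sensor of an inflammasome, and *Casp1* (ENSMUSG00000025888.5, chromosome 9, 5298517 to 5307265, plus strand) the protease that the inflammasome activates. *Nlrp3* had 5.09, 17.0, 4.45 and 1.82 CPM in *Thra1*PV/+ libraries 1 to 4 and 0.954, 1.01, 1.25 and 3.89 CPM in WT libraries 1 to 4. *Thra1*PV/+ library 4 lay below WT library 4, and the other 3 lay above all WT libraries. The estimate was 2.0 (SE 0.77, unadjusted p = 0.0302, adjusted p = 0.444; exact permutation test, p = 0.0571), 1.09 without *Thra1*PV/+ library 2 and 2.72 without WT library 4. *Casp1* had 29.8, 43.4, 37.4 and 32.8 CPM in *Thra1*PV/+ libraries 1 to 4 and 18.7, 29.2, 49.8 and 40.3 CPM in WT libraries 1 to 4. The *Thra1*PV/+ libraries all lay within the WT range. The log2 fold change of 0.05 (SE 0.29, adjusted p = 0.977) changed sign without *Thra1*PV/+ library 2 (-0.05) and without WT library 1 (-0.11).

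**Figure D2:**
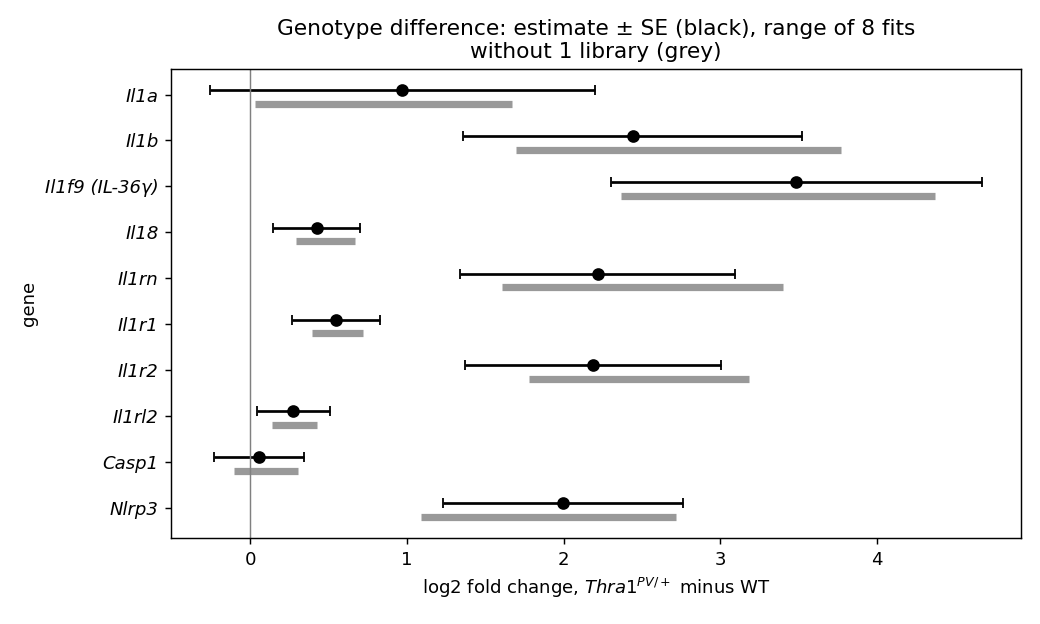
Log2 fold change of each gene between *Thra1*PV/+ and WT endometrium from edgeR, with its standard error (SE) in black and, in grey, the range over 8 fits, each without 1 library. *Il1f9*, *Il1b*, *Il1rn*, *Il1r2* and *Nlrp3* had estimates of 2.0 to 3.49 and kept a positive sign in every such fit, whereas the range of *Casp1* crossed 0.

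Antagonist and agonist, and decoy and signaling receptor, were also compared as ratios within a library, for 3 pairs. The log2 ratio of *Il1rn* to *Il1b* was -0.13, -0.27, -0.09 and 0.57 in *Thra1*PV/+ libraries 1 to 4 and -0.46, 1.28, 0.87 and 0.01 in WT libraries 1 to 4. The groups overlapped, and the difference of -0.40 between a mean of 0.02 (SD 0.38, n = 4) for *Thra1*PV/+ and of 0.42 (SD 0.79, n = 4) for WT endometrium did not exceed the spread between libraries (p = 0.4 by the exact permutation test, adjusted over the 3 ratios 0.543). It was -0.12 without WT library 2 and -0.70 without WT library 1. The log2 ratio of *Il1rn* to *Il1a* was 2.25, 0.04, 0.34 and -0.09 in *Thra1*PV/+ libraries 1 to 4 and -1.33, 3.33, -1.77 and -0.63 in WT libraries 1 to 4. WT library 2, with 8 counts of *Il1a*, had the highest ratio of all libraries. The difference was 0.73 (exact permutation test, p = 0.543, adjusted 0.543) and, without WT library 2, 1.88 with no overlap (exact permutation test, p = 0.0286). It was 0.20 without *Thra1*PV/+ library 1, 0.32 without WT library 1 and 0.18 without WT library 3. The log2 ratio of *Il1r2* to *Il1r1* was -3.02, -1.18, -2.10 and -3.86 in *Thra1*PV/+ libraries 1 to 4 and -3.93, -6.18, -4.70 and -3.05 in WT libraries 1 to 4. WT library 4 lay among the *Thra1*PV/+ libraries and the other WT libraries lay below them. Means were -2.54 (SD 1.15, n = 4) for *Thra1*PV/+ and -4.47 (SD 1.33, n = 4) for WT endometrium, a difference of 1.93 (exact permutation test, p = 0.0571, adjusted 0.171).

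**Figure D3:**
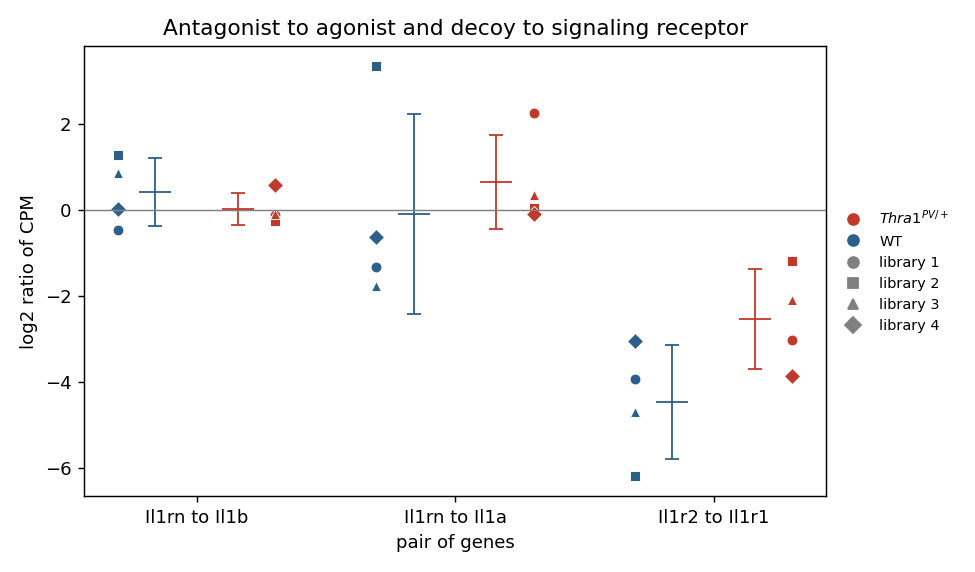
Log2 ratios of antagonist to agonist and of decoy to signaling receptor, 1 point per library, with the mean and SD of each genotype (n = 4) beside the points and WT in blue. *Il1rn* to *Il1b* overlaps between the genotypes, the WT points of *Il1rn* to *Il1a* are spread from -1.77 to 3.33, and *Il1r2* to *Il1r1* is higher in *Thra1*PV/+ than in 3 of the 4 WT libraries.

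Levels of different genes were compared on the authors' TPM values, which account for transcript length. In *Thra1*PV/+ endometrium the median over libraries was highest for *Il1b* (48.7 TPM), followed by *Il1rn* (37.1), *Casp1* (27.3), *Il1f9* (25.8), *Il1r1* (21.9), *Il1a* (21.5), *Il1r2* (15.5), *Il1rl2* (11.8), *Il18* (10.2) and *Nlrp3* (1.35 TPM). In WT endometrium the order of medians was *Casp1* (27.1 TPM), *Il1r1* (15.4), *Il1a* (13.7), *Il1rl2* (9.99), *Il18* (6.80), *Il1b* (6.33), *Il1rn* (4.61), *Il1f9* (3.35), *Il1r2* (2.56) and *Nlrp3* (0.364 TPM). Neighbors in both orders overlapped over their libraries, with 1 exception, *Il18* and *Nlrp3* in *Thra1*PV/+ endometrium. *Il1b*, *Il1rn* and *Il1f9* stood among the first 4 places in *Thra1*PV/+ and in places 6 to 8 in WT endometrium.

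Several of the 10 genes varied together. Over the 8 libraries, which differ in genotype, depth and cell makeup, the Pearson correlation of log2 CPM was 0.98 between *Il1b* and *Il1rn*, 0.97 between *Il1rn* and *Il1f9* and 0.96 between *Il1b* and *Il1r2*. With the genotype means subtracted the same pairs had 0.97, 0.93 and 0.92. *Il1a*, the most variable, had 0.90 with *Il1rl2*, 0.85 with *Il1f9*, 0.82 with *Il1b*, 0.80 with *Il1rn*, 0.74 with *Il1r2* and 0.58 with *Nlrp3* over the 8 libraries. Among the 4 promoter windows shown, those of *Il1f9* and *Il1rn* shared the half-site, which 16.3% of all windows held. Those of *Il1a* and *Il1rn* shared AP-1 (7.81% of all windows), and those of *Il1a* and *Il1b* shared TATAAA (13.6%). The *Il1b* window shared no motif with those of *Il1f9* and *Il1rn*. Whether shared motifs bear on these correlations was not tested. *Il18* ran the other way against *Il1a*, with -0.42 over the 8 libraries and -0.86 with the genotype means subtracted. These values are given as descriptions.

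Neutrophil markers moved with this group. Of 20 neutrophil marker genes, 16 were tested, 0 were called and 6 had an unadjusted p-value under 0.05, all 6 higher in *Thra1*PV/+ endometrium (median log2 fold change 2.07). Their mean log2 CPM was 3.35, 4.92, 3.97 and 2.55 in *Thra1*PV/+ libraries 1 to 4 and 1.38, 0.20, 0.64 and 3.44 in WT libraries 1 to 4, so WT library 4 lay among the *Thra1*PV/+ libraries, as it did for *Il1b* and *Il1rn*. The summed level was 4814 to 11929 CPM in *Thra1*PV/+ and 1579 to 16082 CPM in WT libraries, most of it from *Ltf*, which the uterine epithelium also secretes. Without *Ltf*, a sum chosen after its values were seen, it was 169 to 1090 CPM against 61.3 to 322 CPM. *Hdc*, which mast cells also express, gave 278 of the 289 CPM of WT library 2, the lowest library by the mean. *S100a9*, a calprotectin subunit abundant in neutrophils, had 79.8, 412, 165 and 21.9 CPM in *Thra1*PV/+ libraries 1 to 4 and 10.8, 0.993, 3.06 and 56.1 CPM in WT libraries 1 to 4. The order of the libraries was that of *Il1b* within each genotype. *Csf3r*, the receptor for the neutrophil growth factor G-CSF, had a mean of 40.3 CPM (SD 22.6, n = 4) against 10.4 CPM (SD 9.31, n = 4). The surface marker *Ly6g* was under 3 CPM in every library, with a log2 fold change of -0.24 (SE 0.79, adjusted p = 0.957). *Elane* and *Ctsg*, from granules of immature neutrophils, were at 0 in every library, and *Mpo*, *Camp* and *Ngp* had at most 7, 4 and 12 counts in any library. *Prtn3*, a granule protease of the same stage, had 70 to 217 counts in every library and a log2 fold change of -0.34 (SE 0.42, adjusted p = 0.857).

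Over the 8 libraries, the Pearson correlation with the mean of the neutrophil markers was 0.98 for *Il1r2*, 0.97 for *Il1rn*, 0.97 for *Il1b*, 0.93 for *Nlrp3*, 0.90 for *Il1f9* and 0.70 for *Il1a*, and Spearman's rho was 0.98, 0.95, 0.98, 0.86, 0.88 and 0.76 in the same order. Without WT libraries 2 and 3, the farthest from the median of the marker mean, Pearson's r was 0.94, 1.0, 0.98, 0.97, 0.95 and 0.68. With the genotype means subtracted it was 0.95, 0.94, 0.94, 0.87, 0.79 and 0.68. *Il1r1* had 0.51 over the 8 libraries and 0.16 with the genotype means subtracted, *Casp1* had 0.31 and 0.28, *Il1rl2* had 0.64 and 0.51, and *Il18* had 0.02 and -0.77. Without WT libraries 2 and 3 these 4 genes had 0.24, 0.89, 0.75 and 0.05, so the value of *Casp1* rested on those libraries. The same values with *Ltf*, *S100a8*, *S100a9* and *Hdc* left out of the list, a choice made after the values were seen, were within 0.04 of these for every one of the 10 genes. The points share libraries, and the part of neutrophil RNA in the difference between genotypes was not tested.

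**Figure D4:**
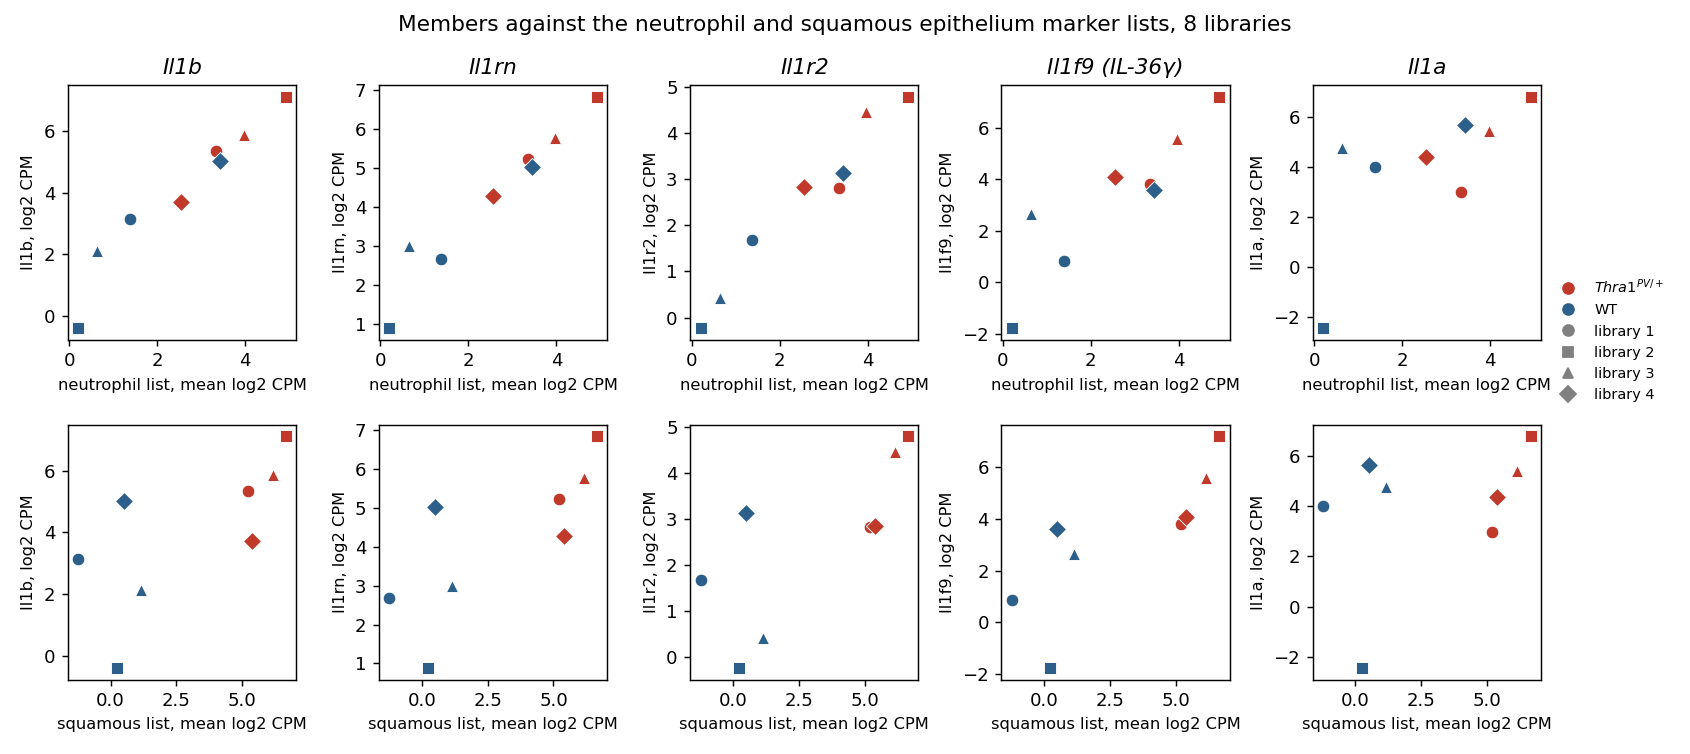
Log2 CPM of *Il1b*, *Il1rn*, *Il1r2*, *Il1f9* and *Il1a* in each library against the mean log2 CPM of the neutrophil markers (upper row) and of the squamous epithelium markers (lower row), with WT in blue, *Thra1*PV/+ in red and library numbers by shape. In the upper row WT library 4 (blue diamond) lies at 3.44, among the *Thra1*PV/+ libraries, and the points of *Il1b*, *Il1rn* and *Il1r2* follow 1 line, whereas in the lower row the genotypes form separate groups.

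Squamous epithelium markers separated the genotypes. Of 25 marker genes, 23 were tested and 14 were called, all 14 higher in *Thra1*PV/+ endometrium, with a median log2 fold change of 6.08 and a summed level of 3707 to 6600 CPM in *Thra1*PV/+ against 78.8 to 263 CPM in WT libraries. *Krtdap* and *Sprr1b* did not pass the count filter. The genotypes fell into separate clusters of 4 libraries on these markers, so correlations across all 8 also carry the genotype difference. Over the 8 libraries, Pearson's r for *Il1f9*, *Il1rn*, *Il1r2*, *Nlrp3*, *Il1b* and *Il1a* was 0.81, 0.78, 0.75, 0.75, 0.69 and 0.41. Spearman's rho was 0.95, 0.86, 0.76, 0.83, 0.79 and 0.57 in the same order. The remaining genes had r from 0.39 (*Casp1*) to 0.54. Without WT library 1 and *Thra1*PV/+ library 2, the farthest from the median of the marker mean, *Casp1* had -0.30 and the rest 0.34 to 0.72. With the genotype means subtracted, the Pearson correlation with the squamous marker mean was 0.95 for *Casp1*, 0.55 for *Il1f9*, 0.52 for *Nlrp3*, 0.46 for *Il1rl2*, 0.39 for *Il1rn*, 0.27 for *Il1a*, 0.18 for *Il1b*, 0.18 for *Il1r2*, -0.14 for *Il1r1* and -0.26 for *Il18*. By the same measure *Il1f9* had 0.79 with the neutrophil markers. The mean log2 CPM of the markers was 5.20, 6.65, 6.15 and 5.39 in *Thra1*PV/+ libraries 1 to 4 and -1.23, 0.24, 1.15 and 0.50 in WT libraries 1 to 4. Among the *Thra1*PV/+ libraries, *Il1f9*, *Il1a*, *Il1r2* and *Casp1* had the order of the squamous markers, with library 2 highest, then 3, 4 and 1. For *Il1r2*, libraries 4 and 1 were close, at 7.11 and 7.0 CPM. *Il1b* and *Il1rn* had the order of the neutrophil markers, with library 2 highest, then 3, 1 and 4. Among the WT libraries, *Casp1* again had the order of the squamous markers, and *Il1b* and *Il1r2* had that of the neutrophil markers. The remaining genes, *Il1rn*, *Il1f9*, *Il1a* and *Nlrp3* among them, had neither order. WT library 4, with squamous markers at 0.50, had 32.4 CPM of *Il1b* and 32.6 CPM of *Il1rn*, more than *Thra1*PV/+ library 4 with squamous markers at 5.39. The summed simple epithelium markers had 2654, 6137, 6675 and 4884 CPM in *Thra1*PV/+ libraries 1 to 4. In WT libraries 1 to 4 they had 2630, 3276, 7224 and 6828 CPM. Library 1 was the lowest of each genotype for them, as for *Casp1* and the squamous markers. The part of squamous cells, or of epithelium of any kind, in the level of these genes was not tested.

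Macrophage and monocyte markers differed less. Of 15 marker genes 14 were tested, 0 were called and 1, the monocyte marker *Ly6c2*, had an unadjusted p-value under 0.05 (log2 fold change 1.83, SE 0.53, edgeR adjusted p = 0.284), with a median of 0.29 and a summed level of 1049 to 1714 CPM in *Thra1*PV/+ and 745 to 1152 CPM in WT libraries. *Thra1*PV/+ library 2, the highest library for *Il1b* and *Nlrp3*, had the lowest mean log2 CPM of these markers, 4.70, where the other libraries had 4.97 to 6.15. The Pearson correlation with the macrophage mean over the 8 libraries was 0.21 for *Il1b* (rho 0.24) and -0.10 for *Nlrp3* (rho 0.14), and without *Thra1*PV/+ libraries 1 and 2, the farthest from its median, it was 0.89 and 0.60. For *Il1r2*, *Il1rn*, *Il1f9* and *Il1a* it was 0.16, 0.16, 0.08 and 0.08 over the 8 libraries. Without those libraries these genes had 0.90, 0.83, 0.82 and 0.76, and *Il1rl2*, *Il1r1*, *Il18* and *Casp1* had 0.53, 0.51, 0.09 and -0.09. With the genotype means subtracted, the 10 genes had values from -0.43 (*Nlrp3*) to 0.09 (*Il18*). Of the T cell markers, 4 of 10 had an unadjusted p-value under 0.05, all 4 higher in *Thra1*PV/+ endometrium, and 0 were called.

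The genes closest to each of the 10 were searched for among 13359 tested genes with a mean log2 CPM of 1 or more. For *Il1b* they were *Pilra*, *S100a9* and *C5ar1* (Pearson correlation of log2 CPM over the 8 libraries 0.99, 0.99 and 0.98). For *Il1r2* they were *Csf3r*, *Ccr1* and *Tgfb1* (0.99, 0.99 and 0.99), and for *Il1rn* they were *Trpm2*, *Cxcl3* and *Pilra* (0.99, 0.99 and 0.98). The closest to *Il1f9* were *Adam8*, *Gm9573* and *Dmkn* (0.99, 0.99 and 0.99), of which *Dmkn* encodes dermokine, a secreted product of keratinocytes. The closest to *Il1a* were *Il1f6*, *Slfn2* and *Zc3h12a* (0.99, 0.99 and 0.98), and the closest to *Nlrp3* were *Ccl3*, *Tnfrsf26* and *Lilrb4a* (0.98 each). For the other 4 genes these were *Zscan12*, *Ttc38* and *Rps4l* for *Il18*, *Zdhhc21*, *Tmem164* and *Tec* for *Casp1*, *Ahsa1*, *Pon2* and *Zfp873* for *Il1r1*, and *Gm32219*, *Slc34a2* and *Irf1* for *Il1rl2* (0.91 to 1.0). Of the 13359 genes 9 were neutrophil and 18 were squamous markers. Among the 50 genes closest to *Il1r2* were 7 neutrophil markers and 1 squamous marker, among those of *Il1b* 5 and 0, of *Il1rn* 4 and 0, and of *Nlrp3* 3 and 0, whereas *Il1f9* had 0 and 2 and *Il1a* 0 and 0. With the genotype means subtracted, *Il1r2* had 7 and 0, *Il1b* 4 and 0, *Il1rn* 2 and 0, *Nlrp3* 0 and 0, and *Il1f9* 0 and 0. The squamous markers had a median log2 fold change of 6.08, and some had few WT counts. In WT library 1, *Krt14* had 0 counts and *Pkp1* had 1. Their profile over the libraries is therefore mostly the genotype difference, so numbers of the 2 lists cannot be compared directly. The values describe these libraries, and no test of them was made.

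Of 12 other ligands and receptors of the family, 10 were tested, 2 had an unadjusted p-value under 0.05, both higher in *Thra1*PV/+ endometrium, and 0 were called, with a median log2 fold change of 0.53. *Il33*, an alarmin held in the nucleus of epithelial cells, had 283, 315, 293 and 339 CPM in *Thra1*PV/+ libraries 1 to 4 and 15.8, 8.52, 11.6 and 75.9 CPM in WT libraries 1 to 4. It was even over the *Thra1*PV/+ libraries and did not overlap with WT (log2 fold change 3.46, SE 0.71, adjusted p = 0.104). *Il1rap*, the shared accessory receptor chain, had 11.2 ± 3.08 CPM (SD, n = 4) against 6.02 ± 1.51 CPM (SD, n = 4), with a log2 fold change of 0.90 (SE 0.29, adjusted p = 0.352). *Il1f6*, encoding IL-36α, had 8.89, 145, 118 and 34.0 CPM in *Thra1*PV/+ libraries 1 to 4 and 30.9, 0.217, 38.6 and 112 CPM in WT libraries 1 to 4, which is the pattern of *Il1a* with the same lowest library in each genotype, and its log2 fold change was 0.76 (SE 1.29, adjusted p = 0.903).

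Of 13 genes of IL-1 receptor signaling, from *Myd88* and the IRAK kinases to *Rela*, all 13 were tested, 0 had an unadjusted p-value under 0.05 and 0 were called, with a median log2 fold change of -0.02. Of 13 inflammasome and processing genes 11 were tested and 0 were called, with a median of 0.12. *Aim2*, a sensor of cytosolic DNA, had 8.54, 15.3, 9.01 and 19.1 CPM in *Thra1*PV/+ libraries 1 to 4 and 4.54, 3.23, 6.17 and 5.27 CPM in WT libraries 1 to 4, without overlap (log2 fold change 1.44, SE 0.34, unadjusted p = 0.00261, adjusted p = 0.168). *Nek7*, a kinase needed by the NLRP3 inflammasome, had 65.7 ± 11.4 CPM (SD, n = 4) against 91.5 ± 16.8 CPM (SD, n = 4), a log2 fold change of -0.48 (SE 0.18, unadjusted p = 0.0266, adjusted p = 0.430). Of 15 genes known to respond to IL-1, 14 were tested and 0 were called, with 9 positive log2 fold changes and a median of 0.39. Among them 1 had an unadjusted p-value under 0.05, the matrix metalloproteinase gene *Mmp3* (log2 fold change -3.68, SE 1.41, adjusted p = 0.444). It had at most 35 counts in any *Thra1*PV/+ library, 8.03 CPM in WT library 1 and 0.325 to 1.36 CPM in the other WT libraries. The neutrophil chemokine *Cxcl2* had the highest log2 fold change of these response genes. Its levels were 20.5, 256, 25 and 7.65 CPM in *Thra1*PV/+ libraries 1 to 4 and 13.5, 0.199, 7.04 and 46.5 CPM in WT libraries 1 to 4. It overlapped between genotypes and had the same highest and lowest libraries as *Il1b* (log2 fold change 2.20, SE 1.46, adjusted p = 0.681).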

How the data were processed

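The methods give frozen uterine sections of 4 WT and 4 *Thra1*PV/+ mice as the source of laser-captured endometrium, the labels give uterus, and libraries were grouped by the labels. Libraries were made with an Illumina stranded mRNA kit and sequenced in pairs on a NextSeq instrument. The authors trimmed reads with Trimmomatic, estimated counts with Salmon on mouse genome mm10 and tested them with DESeq2 (versions not given in the sources used here). They deposited expected counts that were not normalized, and TPM values whose sorted columns differ by at most 0.291 TPM at any rank, the form that quantile normalization gives. Each gene's deposited TPM was used for the order of levels and as an alternative, and 1 further column of that table was not used.

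After rounding to whole numbers, the estimated counts were compared with edgeR 4.0.16 in R 4.3.3: filterByExpr (minimum count 10, minimum total 15), TMM normalization, and the quasi-likelihood test with genotype as the only term and Benjamini-Hochberg adjustment over 18174 genes. Log2 CPM used a prior count of 2. Correlations and permutation tests used log2 CPM. Exact permutation tests were two-sided. No source used here names the animal behind each library, so p-values measure the spread between these 8 libraries, which may be partly technical. Library totals were 48791602 to 59818887 counts, and the lowest value among the 10 genes rested on 8 counts. The 10 genes, the marker lists and the tests were chosen with earlier results of these data known. The genes named besides them are the 3 closest by Pearson correlation, members of the lists with an unadjusted p-value under 0.05, and *Ltf*, *S100a9*, *Csf3r*, *Ly6g*, *Elane*, *Ctsg*, *Mpo*, *Camp*, *Ngp*, *Prtn3*, *Hdc*, *Il1f6* and *Cxcl2*, which were chosen after their values were seen. Gene positions are from GENCODE M21 (GRCm38). Alternatives were DESeq2 1.42.0, other normalizations and filters, voom (limma 3.58.1), log2 TPM with pseudocounts of 1 and 0.1, replicate number as a block, and each library left out. In data simulated from these libraries with 200 changed genes, edgeR recovered 73% of them on average over 5 draws, and 9.54% of its calls were false. The 73% is an average over all 200 genes and is not split by fold change. Recovery at the fold change of each of the 10 genes was not tested.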

Additional observations from a re-analysis of the deposited data

Results flagged for a closer look

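In 1 of 26 groups of 4 libraries examined, a single library lay farther from the rest than Dixon's 95% limit allows, where chance gives 1.3. This was *Il18* in WT library 2, with a log2 CPM of 2.62.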

How the results depend on the processing

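The number of genes called, 180, was 793 with DESeq2, 311 with voom and sample weights, 82 with the replicate block, 81 with at least 10 counts in every library, and 81 to 167 without 1 library. None of the 10 genes was called by edgeR, voom or limma in any of these fits, and DESeq2 called 2. In edgeR, 4 of the 10 had an unadjusted p-value under 0.05 (0 to 6 without 1 library). Each of the 10 genes kept a positive log2 fold change under every alternative except *Casp1*, which was -0.05 without *Thra1*PV/+ library 2 and ranged from -0.11 (without WT library 1) to 0.31 over the fits without 1 library. With at least 10 counts in every library *Il1a* could not be tested. Without 1 library, the difference in log2 ratio ranged from 0.18 to 1.88 for *Il1rn* to *Il1a*, from -0.70 to -0.12 for *Il1rn* to *Il1b* and from 1.35 to 2.40 for *Il1r2* to *Il1r1*. WT library 2, with 8 counts of *Il1a*, was the library left out at the upper end for *Il1rn* to *Il1a*.

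Deviations of same-numbered libraries from their genotype means correlated at 0.27, -0.44, 0.34 and -0.16. These values, of mixed sign, do not show that the labels' replicate numbers pair the samples, and so few libraries cannot exclude it. With the replicate block, 0 of the 10 genes had an unadjusted p-value under 0.05 (log2 fold changes 3.27 for *Il1f9* and 2.51 for *Il1r2*), and paired sign-flip tests of the 3 ratios gave exact p-values of 0.5, 0.625 and 0.25, where the smallest possible is 0.125.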
